A study of Mus musculus with 9 samples.

Results

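The 10 genes that mark microvillar and brush cells of the olfactory epithelium were followed, out of 55291 genes in the tables, through 9 RNA-seq libraries of sorted olfactory sensory neurons. They are Ascl3, Foxi1, Cftr, Coch, Hepacam2, Trpm5, Avil, Chat, Gnat3 and Plcb2, taken by name. Libraries came from mice in which the olfactory receptor gene Olfr73 or Olfr1507 was followed by IRES-GFP, or Olfr160 by IRES-mCherry, so that a cell transcribing the tagged receptor also makes the fluorescent protein. Cells of the main olfactory epithelium were freed with papain and sorted as GFP or mCherry high and DAPI low, and polyadenylated RNA was amplified with a kit for single cells and low input, giving 3 libraries for each of the 3 genotypes. Age, sex and the number of animals behind a library are not given in the labels, and no label ties the 3 libraries of a genotype to different mice; p-values below therefore measure how far these libraries spread, which may be technical.

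Microvillar cells are non-neuronal cells that reach the surface of the olfactory epithelium between the supporting (sustentacular) cells. The ionocyte type is known for the transcription factors Ascl3 and Foxi1, for the anion channel CFTR and for proton pumps, and resembles the ionocytes of airway and kidney. The other type, related to the tuft or brush cells of gut and airway and to solitary chemosensory cells, uses the taste signalling chain (gustducin, phospholipase C beta 2, the cation channel TRPM5), depends on the transcription factor POU2F3 and can make acetylcholine through choline acetyltransferase. Trpm5 is also known from a subset of olfactory sensory neurons, so it does not mark microvillar cells alone.

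All 10 genes had an entry among the 32851 mouse promoters of the RefSeq table (GRCm38.p6), each reaching from 250 bases before to 50 bases after the annotated start. The upstream 250 bases of 4 of them, picked by their values below, are shown. Ascl3 and Avil nearly disappeared in the Olfr1507 libraries, whereas Coch kept the highest residual level. Cftr has a G and C share near that of Coch but fell as Ascl3 did. Each is written 5′ to 3′ on the gene's own strand, ends just before the start, and has in capitals any match to the octamer core TTGCAT or its reverse complement ATGCAA.
Ascl3: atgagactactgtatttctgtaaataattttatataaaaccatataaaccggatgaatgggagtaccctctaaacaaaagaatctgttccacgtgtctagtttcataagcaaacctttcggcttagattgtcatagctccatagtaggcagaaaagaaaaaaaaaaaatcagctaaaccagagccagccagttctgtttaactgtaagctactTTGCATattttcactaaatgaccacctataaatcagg
Avil: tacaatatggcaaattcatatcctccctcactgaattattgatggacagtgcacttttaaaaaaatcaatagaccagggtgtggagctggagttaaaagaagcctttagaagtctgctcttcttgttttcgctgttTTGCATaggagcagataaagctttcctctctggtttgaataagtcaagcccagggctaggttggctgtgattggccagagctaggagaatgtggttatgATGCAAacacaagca
Cftr: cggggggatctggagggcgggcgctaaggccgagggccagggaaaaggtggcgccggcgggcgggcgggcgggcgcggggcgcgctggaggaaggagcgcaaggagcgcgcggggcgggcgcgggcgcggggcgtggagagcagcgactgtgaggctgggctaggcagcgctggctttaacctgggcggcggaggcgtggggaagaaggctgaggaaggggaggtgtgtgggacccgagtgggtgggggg
Coch: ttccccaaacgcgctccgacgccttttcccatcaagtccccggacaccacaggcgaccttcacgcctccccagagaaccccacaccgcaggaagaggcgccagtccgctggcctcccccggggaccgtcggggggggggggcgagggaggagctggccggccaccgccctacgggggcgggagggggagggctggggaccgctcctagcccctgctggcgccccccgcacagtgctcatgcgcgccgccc
These stretches lie at chr7:109731733-109731982 (minus strand), chr10:127000459-127000708 (plus), chr6:18170437-18170686 (plus) and chr12:51593091-51593340 (plus). Over the full window, the Coch promoter was 73.7% G or C with 32 CpG dinucleotides and that of Cftr 71.3% with 31, against medians of 52.7% and 7 over all promoters. The promoter of Ascl3 held 36.0% G or C and 3 CpG, and that of Avil 43.0% and 2. Of the 4 shown, Coch and Ascl3 thus have the highest and the lowest G and C share, and Cftr sits beside Coch. The promoters not shown held 61.7% (Plcb2), 60.3% (Foxi1), 55.7% (Chat), 53.0% (Trpm5), 43.0% (Hepacam2) and 42.0% (Gnat3). Any link between these shares and the levels below was not tested.

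Letters for 4 motifs were searched on both strands of the full windows. The octamer core TTGCAT, of the class bound by POU factors such as POU2F3 and contained in the longer octamer ATGCAAAT, was found in 3 of 10 (Ascl3, Avil and Gnat3) and in 10.7% of all promoters. Its first base lay 37 bases before the start of Ascl3, 82 before that of Gnat3, and 114 before that of Avil, with the second Avil match, on the other strand, 15 bases before the start. The full octamer ATGCAAAT was in 0 of 10 and in 1.74% of all promoters, and the forkhead core TGTTTAC, of the class bound by FOXI1, in 0 of 10 and in 3.65%. The E-box CAGCTG, of the class bound by ASCL factors, was in 2 of 10, at 150 bases before the start of Chat and 31 before that of Hepacam2, and in 16.3% of all promoters. A match is a string of letters and not a bound site.

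Total counts per library ran from 17212807 to 36230606, so that 3 counts, used as the floor for a gene without reads, were worth 0.0828 to 0.174 CPM (counts scaled to a common library size). The share of the tagged receptor in all Olfr counts was 85.2% to 94.7% in the Olfr1507 libraries, 22.8% to 32.8% in the Olfr73 libraries and 2.08% to 10.1% in the Olfr160 libraries. Markers of other cells differed between the groups too. The sustentacular and gland list (16 genes summed) stood at 25620 to 57610 normalised CPM in the Olfr160 libraries, 3989 to 7237 in the Olfr73 libraries and 346 to 916 in the Olfr1507 libraries, while Omp, the marker of mature olfactory neurons, averaged 10930, 16490 and 23940. The labelled cell type, mature olfactory sensory neuron, therefore had its markers in all 9 libraries, with RNA of supporting cells in all 9 as well.

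Levels below are CPM after TMM normalisation, called normalised CPM, given per library in the order 1, 2, 3. Differences are log2 fold changes from edgeR's quasi-likelihood test over all 16399 genes that passed a low-count filter, with Benjamini-Hochberg adjustment and a threshold of 0.05. Of the 10 markers, 8 were tested. Gnat3 and Plcb2 had too few counts, and Cftr and Chat passed the filter, set at 0.476 CPM, only through their Olfr160 libraries. In bulk RNA, fewer cells of a type and less RNA per cell cannot be told apart.

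**Figure D1:**
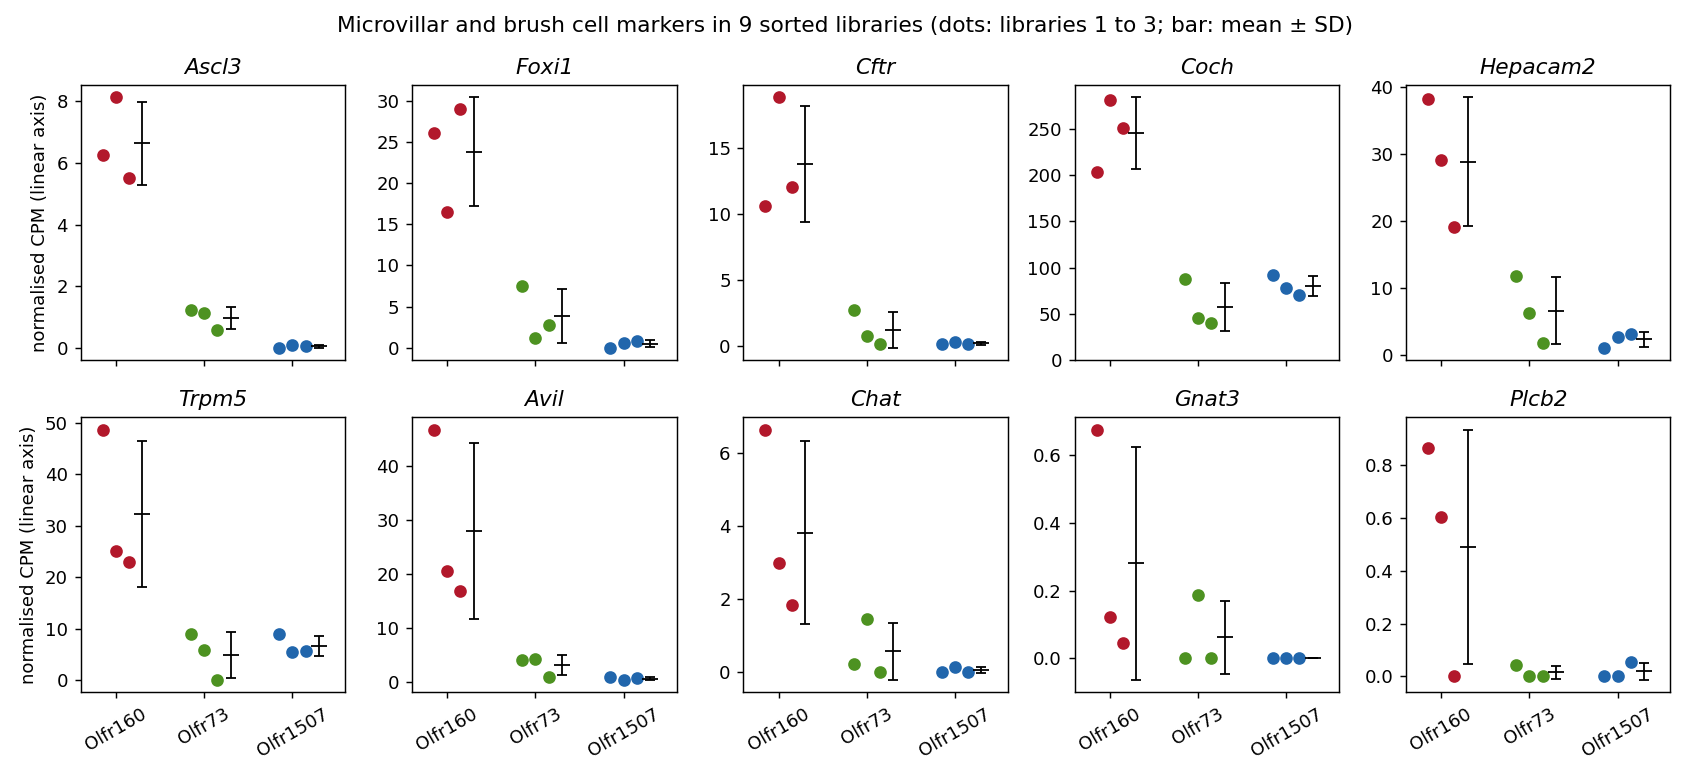
Normalised CPM (linear axis, own scale for each gene) of the 10 markers in the 9 libraries; dots are libraries, and the black bars are the mean ± SD of 3 libraries. For each of the 8 tested markers the 3 Olfr160 dots lie above all dots of the other groups. The share of all tested genes with this order was not counted, so the order is not read as a trait of the markers. Cftr and Chat passed the low-count filter only through their Olfr160 libraries. Coch is the gene with most signal left in the Olfr1507 libraries (70.7 to 91.6).

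The ionocyte-type markers were highest in the Olfr160 libraries and, for Ascl3, Foxi1 and Cftr, below 1 normalised CPM in every Olfr1507 library. Ascl3, a basic helix-loop-helix transcription factor, was at 6.26, 8.13 and 5.51 normalised CPM in the Olfr160 libraries, at 1.23, 1.12 and 0.559 in the Olfr73 libraries and at 0, 0.0991 and 0.0558 in the Olfr1507 libraries. The groups did not overlap in any pair, and Ascl3 was the tested marker that separated all 3 groups most clearly. It was lower in Olfr1507 than in Olfr160 libraries (log2 fold change -6.73 ± 0.76, SE, adjusted p = 0.0001512), lower again against Olfr73 (-3.97 ± 0.72, adjusted p = 0.003384), and lower in Olfr73 than in Olfr160 libraries (-2.76 ± 0.59, adjusted p = 0.01492; without Olfr160 library 2, -2.59 and adjusted p = 0.07683). Because the Olfr1507 libraries held 4 Ascl3 counts in all, against 455 and 64, the ratios carry wide counting intervals: Olfr160 over Olfr1507 was 149 (95% exact interval 57.8 to 549) and Olfr73 over Olfr1507 was 20.3 (7.55 to 76.7). These intervals cover counting error only.

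Foxi1, the forkhead factor that specifies ionocytes in several organs, followed the same order. Its normalised CPM was 26.1, 16.5 and 29.0 in the Olfr160 libraries, 7.53, 1.22 and 2.70 in the Olfr73 libraries, and 0, 0.528 and 0.838 in the Olfr1507 libraries. No library of a lower group reached a library of a higher one, although Olfr73 library 1 stood well above the other Olfr73 libraries. The change was -5.68 ± 0.95 for Olfr1507 against Olfr160 (adjusted p = 0.001276), -3.05 ± 0.89 for Olfr1507 against Olfr73 (adjusted p = 0.02654) and -2.64 ± 0.79 for Olfr73 against Olfr160 (adjusted p = 0.04803), so the last lies just inside the threshold. It was lost without any single library other than Olfr73 library 1 and Olfr1507 library 1 (adjusted p from 0.05972 to 0.1214), and the change against Olfr73 was lost without Olfr73 library 1 (-2.08, adjusted p = 0.08465) or Olfr1507 library 2 (-3.18, adjusted p = 0.07378). Foxi1 had 2.03 to 5.27 counts per Ascl3 count in the Olfr160 libraries and 1.08 to 6.11 in the Olfr73 libraries, ranges that overlapped. In the Olfr1507 libraries Ascl3 had 0, 3 and 1 counts, too few for this ratio.

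Cftr encodes the cAMP-gated anion channel. It was at 10.6, 18.8 and 12.01 normalised CPM in the Olfr160 libraries, 2.69, 0.702 and 0.140 in the Olfr73 libraries, and 0.108, 0.297 and 0.112 in the Olfr1507 libraries. Olfr160 stood clear of the other groups, while the lowest Olfr73 library fell within the Olfr1507 range. Cftr was lower in Olfr1507 (-6.19 ± 0.99, adjusted p = 0.00101) and in Olfr73 (-3.54 ± 0.84, adjusted p = 0.02172) than in Olfr160 libraries. Cftr passed the low-count filter only through its Olfr160 libraries, so both calls were favoured by the filter. Between Olfr1507 and Olfr73 the change of -2.65 ± 0.92 just missed the threshold (adjusted p = 0.05023). It passed under 7 of 23 alternatives, among them DESeq2 (-2.75, adjusted p = 0.008759) and leaving out Olfr73 library 3 (-3.16, adjusted p = 0.009339). The call between Olfr73 and Olfr160 was lost without Olfr160 library 2 (-3.25, adjusted p = 0.08278) or Olfr73 library 2 (-3.31, adjusted p = 0.05825).

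Coch, which encodes cochlin, an extracellular matrix protein best known from the inner ear, had by far the most counts of the 10. It was at 204, 281 and 251 normalised CPM in the Olfr160 libraries, 87.2, 45.3 and 40.1 in the Olfr73 libraries, and 91.6, 77.7 and 70.7 in the Olfr1507 libraries. Here the order of the lower groups differed from that of Ascl3, Foxi1 and Cftr: the Olfr1507 mean (80.0 ± 10.7, SD, n = 3) was not below the Olfr73 mean (57.5 ± 25.8), and their ranges overlapped. Coch was 2.09 ± 0.28 lower on the log2 scale in Olfr73 than in Olfr160 libraries (log2 fold change -2.09, adjusted p = 0.003076) and 1.62 ± 0.28 lower in Olfr1507 (-1.62, adjusted p = 0.001445), with no call between Olfr1507 and Olfr73 (0.47 ± 0.27, adjusted p = 0.2). Without Olfr73 library 1 that last change was 0.91 and passed the threshold (adjusted p = 0.006904), whereas scaling the libraries to the mature neuron genes turned it to -0.38.

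As a result, Coch and Ascl3 parted within the libraries. Coch had 32.5, 34.6 and 45.5 counts per Ascl3 count in the Olfr160 libraries from lowest to highest, 40.3, 70.8 and 71.7 in the Olfr73 libraries, and at least 422, 566 and 784 in the Olfr1507 libraries with Ascl3 set to no less than 3 counts. The Olfr1507 ratios were above all others (p = 0.1 in each pair by an exact two-sided permutation test), the smallest that 3 libraries against 3 can give. This ratio was chosen after the values were seen. A ratio taken within a library does not depend on how libraries are scaled. Because the pair was picked for its difference, the ratio only describes these libraries, and its p-value is no support.

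Hepacam2, a cell adhesion protein of the immunoglobulin family found on both ionocyte and tuft lists, lay between these patterns. It was at 38.2, 29.1 and 19.0 normalised CPM in the Olfr160 libraries, 11.8, 6.18 and 1.72 in the Olfr73 libraries, and 1.03, 2.67 and 3.07 in the Olfr1507 libraries. The lowest Olfr73 library fell inside the Olfr1507 range. Hepacam2 fell by 3.66 ± 0.67 on the log2 scale in Olfr1507 against Olfr160 libraries (log2 fold change -3.66, adjusted p = 0.002108) and by 2.13 ± 0.62 in Olfr73 (-2.13, adjusted p = 0.04382), and its change of -1.53 ± 0.64 between Olfr1507 and Olfr73 did not pass (adjusted p = 0.08827). It passed without Olfr73 library 3 (-1.98, adjusted p = 0.01513), with DESeq2 (-1.57, adjusted p = 0.03118) and with the libraries scaled to the mature neuron genes (-2.39, adjusted p = 0.01993). The Olfr73 call was lost without any of Olfr160 libraries 1 and 2, Olfr73 libraries 2 and 3 and Olfr1507 libraries 2 and 3, with adjusted p from 0.05874 to 0.1286.

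Among the tuft and brush cell markers, Avil had the clearest differences. Avil encodes advillin, an actin-bundling protein of the villin family, and was at 46.8, 20.5 and 16.9 normalised CPM in the Olfr160 libraries, 4.01, 4.21 and 0.885 in the Olfr73 libraries, and 0.756, 0.297 and 0.614 in the Olfr1507 libraries. All 3 groups were apart from each other, the nearest values being 0.885 and 0.756. The change was -5.69 ± 0.72 for Olfr1507 against Olfr160 (adjusted p = 0.0002889), -3.20 ± 0.62 for Olfr73 against Olfr160 (adjusted p = 0.01036) and -2.48 ± 0.67 for Olfr1507 against Olfr73 (adjusted p = 0.0199). The last of these was lost, with adjusted p from 0.05408 to 0.07569, without Olfr73 library 1 or 2 or Olfr1507 library 2 or 3. On log2(TPM + 1) it was -0.31 (adjusted p = 0.7205).

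Trpm5, the calcium-activated cation channel of taste-type signalling, behaved differently from Avil. Its normalised CPM was 48.7, 25.2 and 23.0 in the Olfr160 libraries, 8.89, 5.90 and 0.0466 in the Olfr73 libraries, and 8.96, 5.48 and 5.64 in the Olfr1507 libraries. The Olfr160 libraries were above all others, but Olfr73 library 3, with 1 count against 202 and 126 in the other Olfr73 libraries, stood far below the rest of its group. By the edgeR test over all libraries, Trpm5 was the tested marker called in none of the comparisons: -2.27 ± 0.93 for Olfr1507 against Olfr160 (adjusted p = 0.06771), -2.70 ± 0.94 for Olfr73 against Olfr160 (adjusted p = 0.07754) and 0.43 ± 0.91 for Olfr1507 against Olfr73 (adjusted p = 0.7334). Without Olfr73 library 3 the first was -2.27 with an adjusted p of 0.001103, the second was -2.12 with 0.01963, and the third changed sign to -0.15. Trpm5 also passed against Olfr160, for Olfr1507 and Olfr73, with limma-voom (adjusted p = 0.02207 and 0.02683), on log2(TPM + 1) (0.006324 and 0.006398) and on log2(TPM + 0.1) (0.02733 and 0.02001), and with the mature neuron scaling (0.006489 and 0.03119). For Olfr1507 alone it passed by library size alone (0.04121) and with only the 6 libraries compared (0.001261).

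Trpm5 thus kept 20.7% of its Olfr160 mean in the Olfr1507 libraries, where Avil kept 1.98%. Trpm5 had 1.04 to 1.36 counts per Avil count in the Olfr160 libraries and 9.18 to 18.4 in the Olfr1507 libraries, with the Olfr73 libraries at 0.0526, 1.40 and 2.22. The Olfr1507 ratios stood above those of both other groups (exact two-sided permutation p = 0.1 each, the smallest possible). As with Coch and Ascl3, this pair was picked after seeing the values, so its p-value is no support.

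Chat, the enzyme that makes acetylcholine, was low throughout. It was at 6.65, 2.99 and 1.82 normalised CPM in the Olfr160 libraries, 0.2202, 1.45 and 0 in the Olfr73 libraries, and 0, 0.132 and 0 in the Olfr1507 libraries. The lower groups overlapped, and in Olfr73 nearly all counts (31 of 36) came from library 2. Chat was lower in Olfr1507 than in Olfr160 libraries (-6.03 ± 1.63, adjusted p = 0.01375, 4 counts against 253, a ratio of 82.8 with a 95% exact interval of 31.9 to 306). Chat passed the low-count filter only through its Olfr160 libraries, which favoured this call. Its change of -2.77 ± 1.33 in Olfr73 against Olfr160 was not called (adjusted p = 0.1772), but passed with limma-voom (adjusted p = 0.04187) and with limma on both log2 TPM scales (0.02139 and 0.04931). The change of -3.26 ± 1.55 between Olfr1507 and Olfr73 was not called either (adjusted p = 0.1281), except without Olfr73 library 3 (-3.81, adjusted p = 0.04763).

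Gnat3, the alpha subunit of the taste G protein gustducin, and Plcb2, the phospholipase C beta that acts downstream of it, were barely detected. Gnat3 had 14, 3 and 1 counts in the Olfr160 libraries, 0, 4 and 0 in the Olfr73 libraries, and 0 in each Olfr1507 library, which allows up to 0.0828 to 0.143 CPM there. Against a floor of 3 counts over the group, Gnat3 was at least 7.85-fold lower in Olfr1507 than in Olfr160 libraries (p = 0.1, exact permutation test). Plcb2 had 18, 15 and 0 counts in the Olfr160 libraries, 1, 0 and 0 in the Olfr73 libraries, and 0, 0 and 1 in the Olfr1507 libraries, with exact permutation p = 0.4 for either group against Olfr160. Gnat3 and Plcb2 are therefore not resolved at this depth, and the taste-type chain was represented mainly by Trpm5.

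Counted together, 7 of the 8 tested markers were lower in Olfr1507 than in Olfr160 libraries and 0 were higher, where 27.7% of all tested genes were lower and 20.7% higher. For Olfr1507 against Olfr73, 3 (Ascl3, Foxi1 and Avil) were lower and 0 higher, against 19.9% and 14.5% of all tested genes. For Olfr73 against Olfr160, 6 were lower and 0 higher, against 10.5% and 7.45%. The latter 6 were all the tested markers but Trpm5 and Chat. That 6 fell to 2 without Olfr160 library 2 and to 3 without Olfr73 library 2, and the 3 for Olfr1507 against Olfr73 became 1 without Olfr73 library 1 or Olfr1507 library 2, and 6 without Olfr73 library 3. Leaving aside Cftr and Chat, whose difference the filter favoured, 5 of 6 were lower in Olfr1507 and 5 of 6 in Olfr73 than in Olfr160 libraries. All comparisons of Olfr160 share the same 3 Olfr160 libraries, so they are not separate tests of that group. With Olfr160 represented by library 3 alone, the library with the largest share of its tagged receptor, the lone library is assumed to vary like the other groups, and only 61 of all 17679 genes passed in edgeR for Olfr73 against Olfr160. None of the 8 markers was among them (5 had an unadjusted p below 0.05), while for Olfr1507 against Olfr160 6 of 8 were lower.

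**Figure D2:**
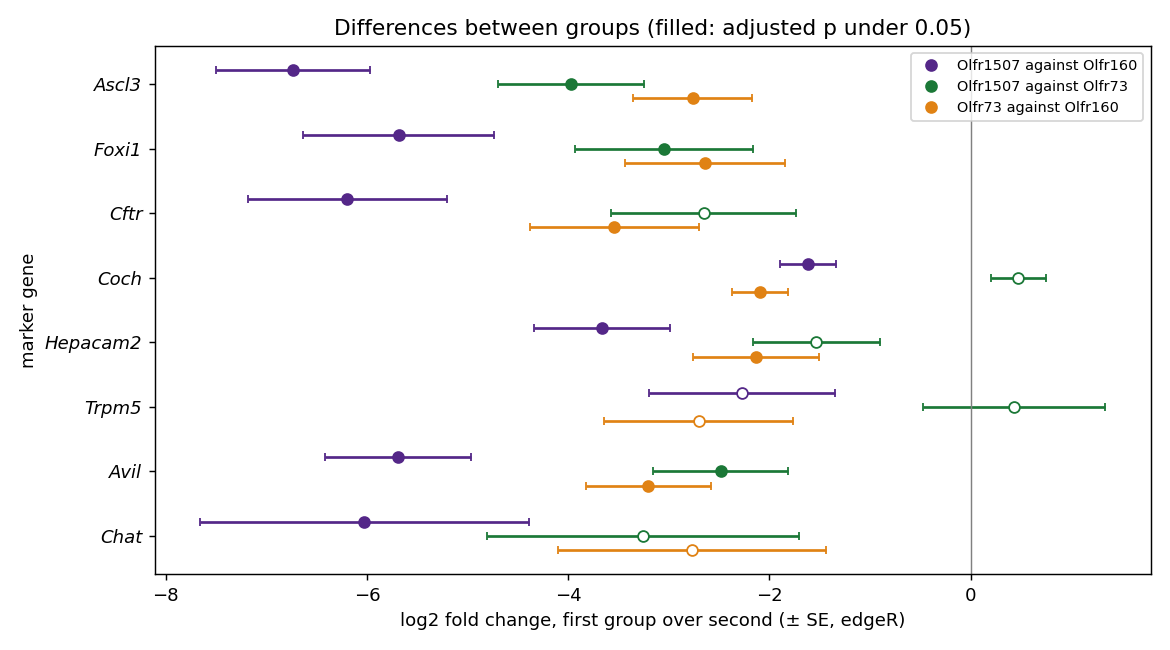
Log2 fold changes (first group over second, ± SE, edgeR) of the 8 tested markers in the 3 comparisons; filled points passed an adjusted p of 0.05. Ascl3 and Avil are filled in all 3 comparisons, as is Foxi1, Trpm5 is open in all 3, and Coch lies nearest to 0 for both comparisons with Olfr1507 apart from Trpm5 against Olfr73.

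By level per transcript length, in the authors' TPM (length-normalised abundance), the order in the Olfr160 libraries was Coch (205 ± 30.6, SD, n = 3), Ascl3 (54.3 ± 9.89), Hepacam2 (26.0 ± 8.29), Foxi1 (20.6 ± 5.82), Avil (17.7 ± 10.2), Trpm5 (14.9 ± 6.74), Cftr (4.05 ± 1.40), Chat (2.83 ± 1.96), Gnat3 (0.527 ± 0.639) and Plcb2 (0.273 ± 0.257). Coch and Ascl3 stood apart from the gene next in order, as did Trpm5 from Cftr, and Chat from Gnat3. From Hepacam2 to Trpm5 the ranges of neighbours overlapped, as did those of Cftr and Chat and of Gnat3 and Plcb2. In the Olfr73 libraries Coch (49.8 ± 26.0 TPM) again led, followed by Ascl3 (7.50 ± 3.17) and Hepacam2 (6.82 ± 5.99), whose ranges overlapped. In the Olfr1507 libraries Coch was at 59.4 ± 6.58 TPM and no other marker exceeded the 2.76 ± 0.736 of Trpm5 on average. Coch made up 59.1% of the markers' summed TPM in Olfr160, 69.8% in Olfr73 and 89.0% in Olfr1507 libraries.

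Some TPM values at few counts went against the counts. Avil had 14, 9 and 11 counts in the Olfr1507 libraries but 0.45, 4.17 and 0.35 TPM, and Plcb2 had 0.38 TPM for a single count in Olfr1507 library 3. Levels at such depth are best read from the counts.

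All markers together held 0.0433% ± 0.00408 of a library's counts in Olfr160 (SD, n = 3), 0.00828% ± 0.00436 in Olfr73 and 0.00761% ± 0.000912 in Olfr1507. Most of that was Coch: without it the shares were 0.0158%, 0.00222% and 0.000865%. Relative to the Olfr160 mean of normalised CPM, the Olfr73 and Olfr1507 libraries had 14.7% and 0.778% for Ascl3, 16.0% and 1.91% for Foxi1, 8.53% and 1.25% for Cftr, and 10.8% and 1.98% for Avil. Hepacam2 had 22.8% and 7.84%, Coch 23.5% and 32.6%, and Trpm5 15.3% and 20.7%. Of these 7, Coch and Trpm5 had an Olfr1507 mean that was not below the Olfr73 mean. Chat had 14.6% and 1.15%. Plcb2 had 2.99% and 3.79%, each from a single count.

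Lists of other cells moved with the same groups. Summed over each list, the Olfr73 and Olfr1507 libraries held 14.8% and 1.59% of the Olfr160 mean for sustentacular and gland genes, 19.3% and 1.29% for basal and progenitor genes, and 16.4% and 0.759% for immune genes. These shares are of the size seen for Ascl3, Foxi1, Cftr and Avil. The 8 markers other than Coch and Trpm5, summed, held 15.3% and 3.36%. The respiratory list held 42.0% and 40.1%, the immature neuron list 71.2% and 49.98%, and the mature olfactory neuron list 154% and 276%. The respiratory sum hid a split: for Olfr1507 against Olfr160, 4 of its 11 genes were higher and 7 lower (median log2 fold change -3.97). Tekt1 averaged 81.9, 112 and 187 normalised CPM in Olfr160, Olfr73 and Olfr1507 libraries, whereas Reg3g averaged 350.5, 85.6 and 4.82. The defining genes went the same way as their lists for Cyp2g1, of supporting cells (4343, 1031 and 63.3 normalised CPM in Olfr160, Olfr73 and Olfr1507), Krt5, of basal cells (88.5, 8.58 and 0.786), and Ptprc, of leukocytes (9.52, 2.73 and 0.322). Foxj1, of ciliated cells, did not (8.36, 12.02 and 20.1), and Gap43, of immature neurons, was at 106, 61.6 and 88.0. In the Olfr1507 libraries 1 of 16 sustentacular, 3 of 9 basal and 4 of 13 immune genes were at 0, and in the Olfr73 libraries 2 of 9 basal genes. The part of these other cells in the marker differences was not tested.

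**Figure D3:**
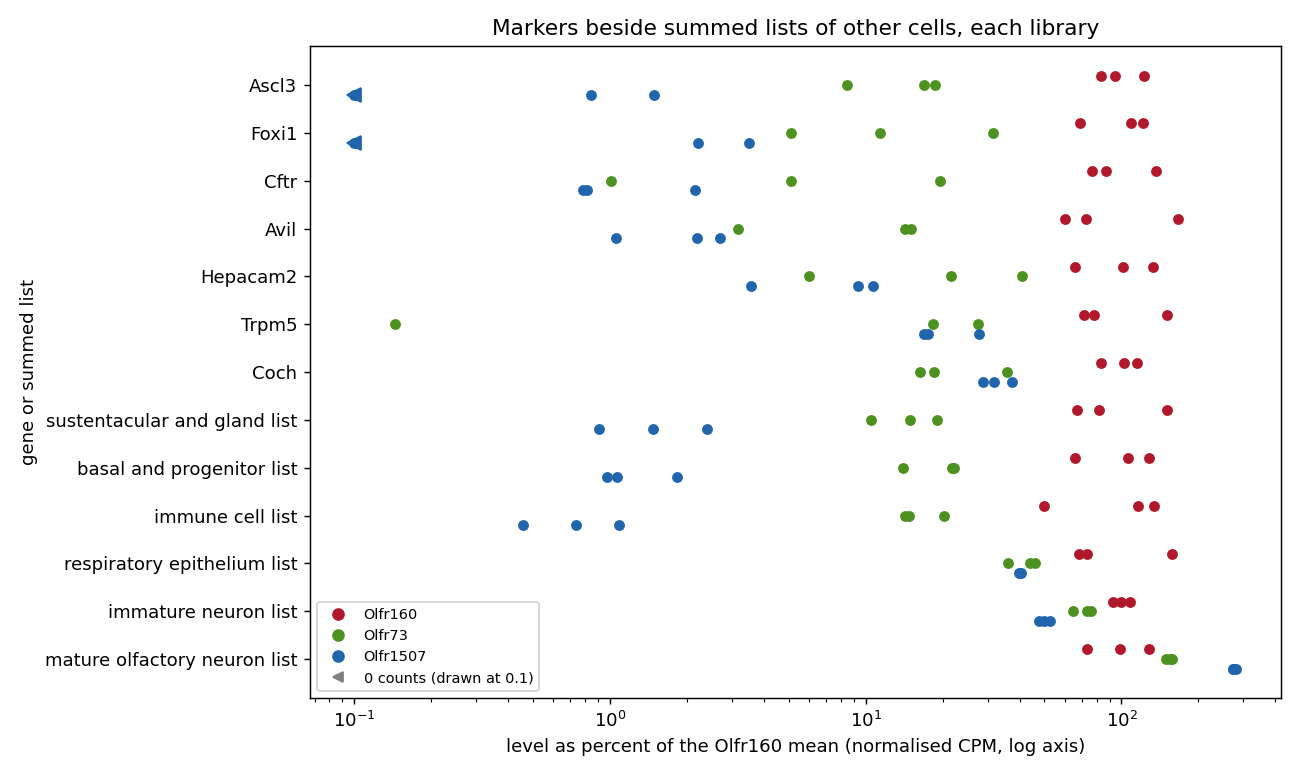
Level of 7 markers and of 6 summed lists in each library as a percentage of the Olfr160 mean (log axis; libraries without a count drawn as triangles at 0.1). Ascl3, Foxi1, Cftr and Avil fall alongside the sustentacular, basal and immune lists, whereas Coch and Trpm5 stay above 10% in the Olfr1507 libraries and the mature neuron list rises above 100%.

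Most tested genes of the ionocyte list were lower in Olfr1507 than in Olfr160 libraries. Of the 30 genes on it (the 5 markers included), 24 were tested, and 21 were lower and 2 higher in Olfr1507 than in Olfr160 libraries, with a median log2 fold change of -5.98 (-5.75 with the gene at 0 counts, Atp6v1g3, at its bound) against -0.14 for all tested genes. Without the markers, 16 of 19 were lower and 2 higher. For Olfr1507 against Olfr73, 14 of 24 were lower and 1 higher (median -3.45, against -0.15), and for Olfr73 against Olfr160, 14 lower and 1 higher (median -2.20, against -0.01). Of the 24, 8 (Cftr and Bsnd among them) could not have passed the low-count filter without their Olfr160 libraries, so the filter favoured their being higher there. Of the other 16, 13 were lower and 2 higher in Olfr1507 than in Olfr160 libraries, 11 lower and 1 higher in Olfr1507 than in Olfr73, and 11 lower and 1 higher in Olfr73 than in Olfr160. Over all tested genes, 27.7%, 19.9% and 10.5% were lower and 20.7%, 14.5% and 7.45% higher in these comparisons. The 14 of 24 for Olfr73 against Olfr160 were 8, 5 and 9 without Olfr160 library 1, Olfr160 library 2 and Olfr73 library 2.

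Subunits of the proton pump were among the genes called in all 3 comparisons. Atp6v1b1, a V-ATPase subunit typical of acid-secreting cells, averaged 351 ± 104 normalised CPM (SD, n = 3) in Olfr160, 89.0 ± 30.4 in Olfr73 and 7.002 ± 1.03 in Olfr1507 libraries, with no overlap (log2 fold change -5.64, adjusted p = 1.116e-05, for Olfr1507 against Olfr160, and -1.98, adjusted p = 0.003747, for Olfr73 against Olfr160). The pump subunits Atp6v0a4 (97.4, 24.0 and 1.26 normalised CPM) and Atp6v1c2 (59.8, 14.4 and 1.29) fell in the same order. Bsnd, the barttin subunit of chloride channels, averaged 6.36, 1.65 and 0.0580 and was lower in Olfr1507 than in both other groups (-6.62, adjusted p = 0.003016, and -4.68, adjusted p = 0.01868, the latter lost without Olfr73 library 1 or any Olfr1507 library, at adjusted p up to 0.06373). Bsnd passed the low-count filter only through its Olfr160 libraries, which favoured the call against them.

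The genes of the ionocyte list called higher in any comparison were Slc12a2, Pde1c and Dgki. Why they went this way was not tested. Slc12a2, a sodium-potassium-chloride cotransporter that also loads olfactory neurons with chloride, was higher in Olfr1507 (237 ± 24.9 normalised CPM) and Olfr73 (286 ± 29.3) than in Olfr160 libraries (119 ± 27.8; log2 fold change 0.99, adjusted p = 0.001748, and 1.26, adjusted p = 0.003491). Pde1c, a phosphodiesterase of olfactory cilia that is on the mature neuron list too, was 0.75 higher in Olfr1507 than in Olfr160 libraries (adjusted p = 0.01653, but 0.05979 without Olfr1507 library 3 and 0.06139 without Olfr160 library 2). Scaling the libraries to the mature neuron genes turned both of these Olfr1507 changes round, to -0.49 and -0.70. Dgki, a diacylglycerol kinase, had 193 counts in Olfr160, 84 in Olfr1507 and 0 in Olfr73 libraries, so it was at least 66.4-fold and 22.1-fold higher than in Olfr73, a pattern shared by no marker.

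The tuft and brush cell list gave a similar picture with a marked exception. Of its 42 genes (6 markers included), 29 were tested, and 23 were lower and 2 higher in Olfr1507 than in Olfr160 libraries (median -5.15, or -4.95 with the 2 genes at 0 counts at their bounds). Without the markers, 20 of 25 were lower and 2 higher. For Olfr1507 against Olfr73, 12 of 29 were lower and 1 higher (median -2.48), and for Olfr73 against Olfr160, 9 lower and 1 higher (median -2.28). The last count of lower genes was 3 without Olfr160 library 1 and 2 without Olfr160 library 2, and the 12 for Olfr1507 against Olfr73 became 6 or 7 without Olfr73 library 1 or any Olfr1507 library. Of the 29, 11 (Chat, Il25 and Alox5ap among them) needed their Olfr160 libraries to pass the filter. Of the other 18, 12, 8 and 6 were lower and 2, 1 and 1 higher in the 3 comparisons in this order. Over all tested genes, 27.7%, 19.9% and 10.5% were lower and 20.7%, 14.5% and 7.45% higher, with medians of -0.14, -0.15 and -0.01. The lists share Hepacam2 and Itpr3, so they are not independent of each other.

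Krt18, a keratin of simple epithelia that supporting cells also express, fell from 680 ± 211 normalised CPM in Olfr160 to 153 ± 76.1 in Olfr73 and 14.1 ± 2.48 in Olfr1507 libraries (-5.59, adjusted p = 2.353e-05, for Olfr1507 against Olfr160). Dclk1, a microtubule-associated kinase used as a tuft cell marker but also made by neurons, was at 112, 54.8 and 23.9, and Alox5ap, of leukotriene synthesis, at 6.26, 0.519 and 0.0296, both called lower in each comparison in that order. The Dclk1 call for Olfr73 against Olfr160 was lost without Olfr160 library 2, and those of Alox5ap between Olfr73 and either other group without several single libraries. Il25, the cytokine made by tuft cells, had 72, 46 and 17 counts in the Olfr160 libraries, 1, 0 and 0 in the Olfr73 libraries and 1, 5 and 0 in the Olfr1507 libraries. It passed the filter only through its Olfr160 libraries. The changes against Olfr160 were -4.57 for Olfr1507 (adjusted p = 0.01052, and 0.05417 without Olfr160 library 1) and -6.61 for Olfr73 (adjusted p = 0.01316, and 0.05648 and 0.051 without Olfr160 library 1 or 2). Itpr3, the calcium release channel downstream of phospholipase C in taste cells, averaged 3.56, 2.37 and 0.0550 and was lower in Olfr1507 than in both other groups.

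Pou2f3, the POU factor on which tuft cells depend, was highest in the Olfr1507 libraries, where Avil was lowest. It was at 12.8, 12.6 and 12.6 normalised CPM in the Olfr160 libraries, 24.8, 26.5 and 22.3 in the Olfr73 libraries, and 65.5, 68.5 and 47.9 in the Olfr1507 libraries. The groups did not overlap, and the libraries of a group lay close together. Pou2f3 was higher in Olfr1507 than in Olfr160 (2.26 ± 0.16, adjusted p = 1.79e-05) and Olfr73 libraries (1.31 ± 0.16, adjusted p = 0.000419), and higher in Olfr73 than in Olfr160 libraries (0.96 ± 0.16, adjusted p = 0.005804). Scaled to the mature neuron genes, these changes kept their sign at 0.72 (adjusted p = 0.02001), 0.46 (adjusted p = 0.1269) and 0.26 (adjusted p = 0.4268), so only the first was still called. Gng13, a G protein gamma subunit that olfactory neurons share with taste cells, was 1.18 higher in Olfr1507 than in Olfr160 libraries (adjusted p = 0.008427), and -0.27 after scaling to the mature neuron genes.

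**Figure D4:**
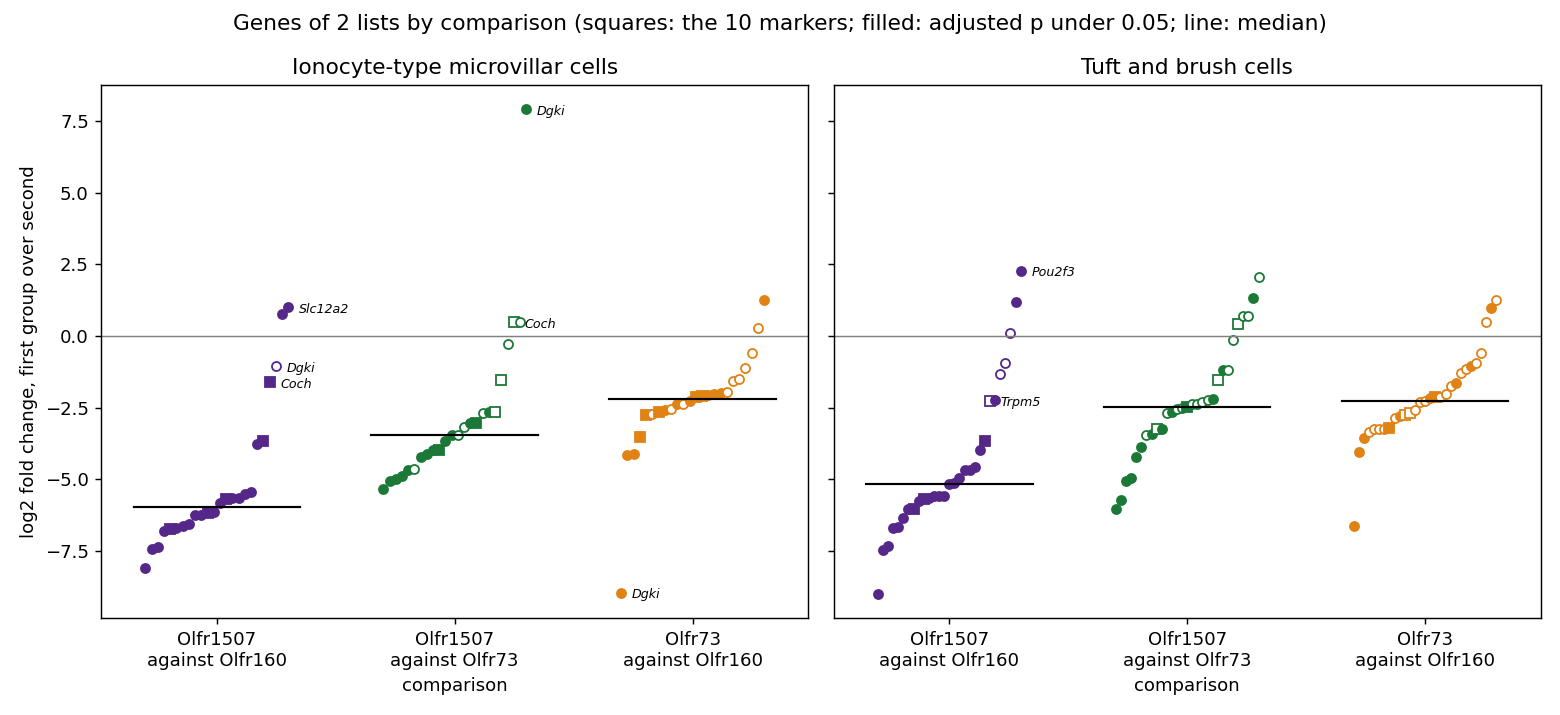
Log2 fold changes (first group over second) of the tested genes of the ionocyte list and of the tuft and brush cell list in the 3 comparisons; squares are the markers, filled symbols passed an adjusted p of 0.05 and the line is the list's median. Most genes lie below 0 for Olfr1507 against Olfr160 (medians -5.98 and -5.15), with Pou2f3 and Slc12a2 among the few above it. These medians include 8 and 11 genes that passed the low-count filter only with their Olfr160 libraries.

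The cholinergic list had 11 genes, of which 6 were tested and 4 (Chat, Ache and Chrm1 among them) needed their Olfr160 libraries to pass the filter. In the test, for Olfr1507 against Olfr160 3 were lower (Chat, Ache and Chrm1) and 1 higher (Chrnb2), against 27.7% and 20.7% of all tested genes. All of the lower ones needed their Olfr160 libraries to pass the filter. The 2 tested genes that did not need them gave 0 lower and 1 higher. Ache, which breaks down acetylcholine, averaged 1.48, 0.536 and 0.0592 normalised CPM in Olfr160, Olfr73 and Olfr1507 libraries (-4.51, adjusted p = 0.01059), and the receptor gene Chrm1 1.29, 0.544 and 0.0110 (-6.04, adjusted p = 0.01905, and up to 0.06593 without Olfr160 library 1 or any Olfr1507 library). Chrnb2, a neuronal nicotinic receptor subunit, was 1.09 higher (adjusted p = 0.005548), and -0.37 after scaling to the mature neuron genes. For Olfr1507 against Olfr73, 1 gene, again Chrnb2, was higher (0.85, adjusted p = 0.02389, and up to 0.06753 without Olfr73 library 2 or any Olfr1507 library) and 0 were lower. Over all tested genes these shares were 14.5% and 19.9%. For Olfr73 against Olfr160 none of the 6 was called, where 7.45% of all tested genes were higher and 10.5% lower. Slc18a3, the vesicular acetylcholine transporter, had 3 counts, all in Olfr160 library 1, and Slc5a7, the choline transporter, had 0 counts in all 9 libraries, so the transporters that go with Chat in cholinergic cells were at the limit of detection.

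Patterns over the 9 libraries were compared by the root mean square difference of log2(CPM + 1), each gene centred on its own mean, for the 8 markers averaging at least 1 CPM. This describes likeness over libraries that share the group differences above. The added 1 CPM damps changes of genes near or below that level, so the distance depends on level as well as pattern. Among the markers, Ascl3 and Cftr were closest (0.52), and Trpm5 and Foxi1 farthest apart (1.42). Coch lay 0.69 from Ascl3 and 1.199 from Foxi1, although all 3 are ionocyte markers. This order differs from that of the edgeR changes for Olfr1507 against Olfr160, which were -1.62 for Coch, -6.73 for Ascl3 and -5.68 for Foxi1.

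The genes nearest to a marker were rarely markers themselves. Foxi1 had the receptor genes Olfr110 (0.37) and Olfr212 (0.38) among its 3 nearest genes. Olfr110 had 366, 399 and 655 counts in the Olfr160 libraries, 82, 18 and 57 in the Olfr73 libraries and 2, 2 and 0 in the Olfr1507 libraries, with its lowest Olfr73 value in library 2, as for Foxi1. Ascl3 was nearest to Ppic, Slfn2 and Alas1, Cftr to Cdo1, Tmco4 and Cxcl12, and Coch to Qdpr, B2m and Rcbtb2. Avil was nearest to Upk1b, Pgghg and Gsta2, Hepacam2 to Lipg, Sting1 and Rreb1, and Chat to Fancd2, Tgm7 and Rbbp8nl.

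Trpm5 was nearest to Tgfb3 (0.38), Tmem229b (0.42) and Cpne8 (0.46), all closer than the nearest marker, Coch (0.82). Tgfb3 had 586, 806 and 407 counts in the Olfr160 libraries, 204, 113 and 7 in the Olfr73 libraries, and 126, 234 and 113 in the Olfr1507 libraries. Tmem229b and Cpne8 had 0 counts in Olfr73 library 3 but 64 to 87 in the other Olfr73 libraries. These genes were picked by their likeness over all 9 libraries, so a low value in that library is part of how they were chosen.

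The markers lie on 8 chromosomes of the mouse genome (GRCm38, GENCODE M21), and the counts cover their exons. Trpm5 (chr7:143069153-143094642, minus strand, 27 exon blocks) overlaps Tssc4 on the opposite strand, which had 1219 to 2293 counts per library, including 1696 in Olfr73 library 3 where Trpm5 had 1. Avil (chr10:127000709-127020994, plus strand, 20 exon blocks) overlaps Tsfm on the opposite strand, with 353 to 829 counts per library, among them 497 to 829 in the Olfr1507 libraries where Avil had 9 to 14. Whether the counting used strand is not given in the sources used here, so reads of such pairs could be shared, and their part in the Trpm5 and Avil values was not tested. Chat (chr14:32408203-32465989, minus strand) contains Slc18a3 on the same strand.

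Cftr (chr6:18170687-18322768, plus strand) overlaps an antisense gene and a pseudogene that had 1 count and 0 counts in all. Ascl3 (chr7:109727465-109731726), Foxi1 (chr11:34204338-34208089), Plcb2 (chr2:118707517-118728438) and Hepacam2 (chr6:3457096-3498298) lie on the minus strand, and Coch (chr12:51593341-51605771) and Gnat3 (chr5:17962549-18019834) on the plus strand, with no overlapping gene annotated. Ascl3 is the shortest, with 700 exonic bases in 2 blocks, so a count is worth more TPM there than in the longer markers.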

How the data were processed

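Polyadenylated RNA of sorted cells was sequenced in 9 libraries, 3 for each of 3 genotypes. Alignment with STAR 2.6.1, quantification with RSEM 1.3.1, the mm10 build and DESeq2 are named in the submitters' processing notes; no source used here gives the annotation, strand setting or filters. The authors deposited expected counts per gene (4.06% to 5.54% of values not whole), which were rounded, and TPM (length-normalised abundance), used as deposited. Columns headed M72, MOR174 and MOR28 were matched to Olfr160, Olfr73 and Olfr1507 by older receptor names. In its own columns the tagged receptor held 2.08% to 10.1%, 22.8% to 32.8% and 85.2% to 94.7% of Olfr counts, in this order. Of the transcript identifiers in the tables, 98.7% were found in GENCODE M21, used for gene positions.

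Rounded counts were tested with edgeR 4.0.16 in R 4.3.3: robust quasi-likelihood fit of a means model by group over all 9 libraries, TMM, filterByExpr (0.476 CPM), Benjamini-Hochberg over 16399 genes, adjusted p under 0.05. Total counts of 17212807 to 36230606 per library set the precision: 3 counts equal 0.0828 to 0.174 CPM. Genes below the filter were compared by exact permutation or by counts with a floor of 3. Alternatives were library scalings, filters, DESeq2 1.42.0, limma 3.58.1 (voom, and log2 of TPM plus 1 or 0.1), other thresholds and left-out libraries. The edgeR steps were tested on simulated data.

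The markers and lists were chosen with earlier results of these data known. Named were all 10 markers, up to 3 called list genes per direction and comparison with the lowest adjusted p, defining genes of each cell, and the 3 genes nearest to each marker, of which 1 is not reported here. Alternatives for list genes were added after seeing the data. Libraries of a group differed by more than counting noise and were counted separately; the design text speaks of duplicates, the labels of 3 replicates. No protein sequences were used here.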

Additional observations from a re-analysis of the deposited data

How the results depend on the processing

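Of 571 recomputed changes of the 8 tested markers (up to 24 alternatives for each marker and comparison), 491 kept direction and side of the threshold, 50 lost their call, 27 gained one and 3 changed sign. The calls of Ascl3, Foxi1, Cftr, Coch, Avil and Hepacam2 for Olfr1507 against Olfr160, and of Ascl3 for Olfr1507 against Olfr73, held in all 24 run. Of these genes, Cftr had passed the filter only through its Olfr160 libraries, so its call against them was favoured by the filter. The marker count for Olfr1507 against Olfr73 (3 lower) was 5 with the libraries scaled to the mature neuron list and with DESeq2, and 1 with limma-voom and at an adjusted p of 0.01; for Olfr73 against Olfr160 (6 lower) it was 1 at an adjusted p of 0.01, 8 with limma-voom and on both log2 TPM scales, 7 with the mature neuron scaling, and 0 with Olfr160 library 3 alone, a group of 1 library assumed to vary like the others. Leaving out 1 library at a time gave 7 to 8 markers lower and 0 higher for Olfr1507 against Olfr160, 1 to 6 lower and 0 to 1 higher for Olfr1507 against Olfr73, and 2 to 6 lower and 0 higher for Olfr73 against Olfr160. The markers' share of counts was 0.0346% (Olfr160) and 0.00666% (Olfr1507) of TPM, and 0.0158%, 0.00222% and 0.000865% without Coch.

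Signs turned for Trpm5 (-0.42) and Coch (-0.38), Olfr1507 against Olfr73, with the libraries scaled to the mature neuron list, and for Trpm5 (-0.15) without Olfr73 library 3, the change being up to 1.17 (without Olfr73 library 1) when single libraries were left out. Among 1132 recomputed changes of 16 other list genes, 14 turned. With the mature neuron scaling these were Gng13 (-0.27, -0.16 and -0.11 in the comparisons Olfr1507 against Olfr160, Olfr1507 against Olfr73 and Olfr73 against Olfr160), Pde1c (-0.70, -0.36 and -0.34), Slc12a2 (-0.49, Olfr1507 against Olfr160) and Chrnb2 (-0.37 for Olfr1507 and -0.37 for Olfr73 against Olfr160). With Olfr160 library 3 alone, for Olfr73 against Olfr160, they were Gng13 (-0.051), Pde1c (-0.20), Chrnb2 (-0.037) and Chrm1 (0.28), and without Olfr160 library 1 Chrnb2 (-0.013, with up to 0.39 when other libraries were left out). Causes were not tested. Over the alternatives other than library 3 alone, the genes of the ionocyte list called lower ranged from 15 to 24, 7 to 20 and 5 to 19 in those comparisons, and of the tuft and brush cell list from 12 to 26, 4 to 17 and 1 to 23.

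Among all genes called, the share higher in the first group was 42.8%, 42.2% and 41.6% in those comparisons with TMM, 17.7%, 18.2% and 30.6% by library size alone, and 0.881%, 4.02% and 1.93% with the mature neuron scaling. The median of all tested genes then moved from -0.14, -0.15 and -0.01 to -0.56, -0.47 and -0.12, and to -1.68, -0.996 and -0.71.

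Whether replicate numbers pair the libraries is not given in the labels, and so few pairs cannot settle it. Same-numbered deviations correlated at -0.22, 0.03 and -0.04 for Olfr1507 with Olfr160, where different-numbered ones ran from -0.14 to 0.17. For Olfr1507 with Olfr73 they correlated at 0.02, 0.01 and 0.12 (different-numbered -0.09 to 0.07). For Olfr73 with Olfr160 they correlated at 0.06, 0.08 and 0.14 (different-numbered -0.13 to 0.06). With the replicate number as a block, 7, 2 and 4 markers were lower and 0 higher; Foxi1 lost its calls in both comparisons with Olfr73 (adjusted p = 0.0633 and 0.06375) and Hepacam2 that for Olfr73 against Olfr160 (0.05325).

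Depth limits Gnat3, Plcb2 and Chat most, and Ascl3 in the Olfr1507 libraries.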
